A study of Homo sapiens with 6 samples.

Results

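The 8 genes of condensin I and condensin II, TOP2A and MKI67 were followed in DLD-1 cells after AHR knockdown. These 10 genes were taken by symbol from the 60483 genes in each count file. All 10 were matched, and all 10 passed the filter on low counts, which 14900 genes passed in all. All 10 had lower transcript levels in the AHR siRNA libraries, at 30.7% to 52.6% of the control siRNA level. NCAPH, a kleisin gene, fell furthest, and NCAPD2 and NCAPD3, which encode the D subunits among the HEAT repeat proteins, fell least.

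Condensins are ring-shaped ATPase complexes that fold chromosomes into compact rods before cell division. Both forms share the ATPase pair SMC2 and SMC4 and differ in a kleisin subunit that closes the ring and in a pair of HEAT repeat subunits that hold DNA. Condensin II lies in the nucleus and acts from prophase, whereas condensin I reaches chromosomes after the nuclear envelope breaks down. TOP2A encodes topoisomerase II alpha, which untangles sister DNA molecules and is a component of mitotic chromosomes. MKI67 encodes Ki-67, which coats mitotic chromosomes and keeps them apart, and which pathologists stain to count dividing cells, also in colorectal tumours. The transcripts of many of these genes, TOP2A and MKI67 among them, are known to be highest late in the cell cycle in dividing cells.

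DLD-1 is a human colorectal adenocarcinoma line, used here at passages 16 to 19. One group of cultures had been transfected with AHR siRNA, which targets the gene of the aryl hydrocarbon receptor, and the other with control siRNA, and each group had 3 RNA-seq libraries. The comparison asks which genes AHR regulates in these cells. Neither the siRNA sequences nor the time after transfection is given in the sources used here, and all cells were of a single line. No label says that the replicates were separate cultures, so a p-value here weighs a difference against a spread between libraries that may be only technical.

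The libraries held 11567736 to 12937058 counts in the AHR siRNA group and 13585529 to 15037145 counts in the control siRNA group, so every AHR siRNA library was shallower than every control siRNA library, and the part of depth in the results was not tested beyond the choice of scaling. AHR itself had 95.8, 87.4 and 95.0 CPM (counts scaled to a common library size) in AHR siRNA replicates 1 to 3, against 117, 144 and 132 CPM in control siRNA replicates 1 to 3. The knockdown libraries thus retained 70.9% of the control level (log2 fold change -0.50, SE 0.08, edgeR adjusted p = 1.98e-05). AC019117.2 overlaps 29.4% of the exonic bases of AHR on the same strand and AC073332.1 3.34% on the other, so reads from those bases are uncertain. All 8 epithelial markers checked passed the filter, with a summed level of 8419 to 8720 CPM in AHR siRNA and 11094 to 12105 CPM in control siRNA libraries. Of the 8, 5 were lower, KRT19 and LGALS4 were not called and VIL1 was higher, at 33.5 ± 1.6 CPM in AHR siRNA and 7.47 ± 1.35 CPM in control siRNA libraries (SD, n = 3 each, edgeR adjusted p = 1.85e-11). VIL1 and LGALS4 are named after their values were seen. LGALS4 was near the limit of detection, at 1.14 ± 0.55 CPM in AHR siRNA and 1.28 ± 0.27 CPM in control siRNA libraries (SD, n = 3 each), and the part of these marker changes in the results was not tested. The summed markers of fibroblasts (6 genes) reached 2.25 to 3.48 CPM in AHR siRNA and 2.13 to 2.99 CPM in control siRNA libraries, with DCN and LUM at 0 in all libraries. Those of endothelium (4 genes) reached 2.24 to 2.51 CPM in AHR siRNA and 1.25 to 1.80 CPM in control siRNA libraries, with KDR at 0. The called markers of these lists were near the limit of detection and are also named after their values were seen. PDGFRB was higher (1.65 CPM in AHR siRNA and 0.49 CPM in control siRNA libraries, edgeR adjusted p = 0.000566), as was VWF (2.22 and 1.22 CPM, 0.0122). COL1A1 was lower (1.19 and 2.08 CPM, 0.0324).

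Every member was called lower by edgeR's quasi-likelihood test, with p-values adjusted by the method of Benjamini and Hochberg across the 14900 genes and a threshold of 0.05. That is 10 of 10, against 30.1% of all tested genes called lower and 30.0% called higher. In all 10, the 3 AHR siRNA libraries lay below the 3 control siRNA libraries, which held for 31.7% of all tested genes. The fall was at least 2-fold in 8 of the 10, against 5.46% of all tested genes that were called lower by at least 2-fold. The median log2 fold change of the 10 genes was -1.34, against 0.01 for all tested genes. By role, the median level was 39.0% of control for the shared ATPases, 43.1% for the subunits of condensin I and 40.7% for those of condensin II. The libraries measure RNA of whole cultures, so that a changed share of cells in any part of the cell cycle and less RNA per cell cannot be told apart.

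**Figure D1:**
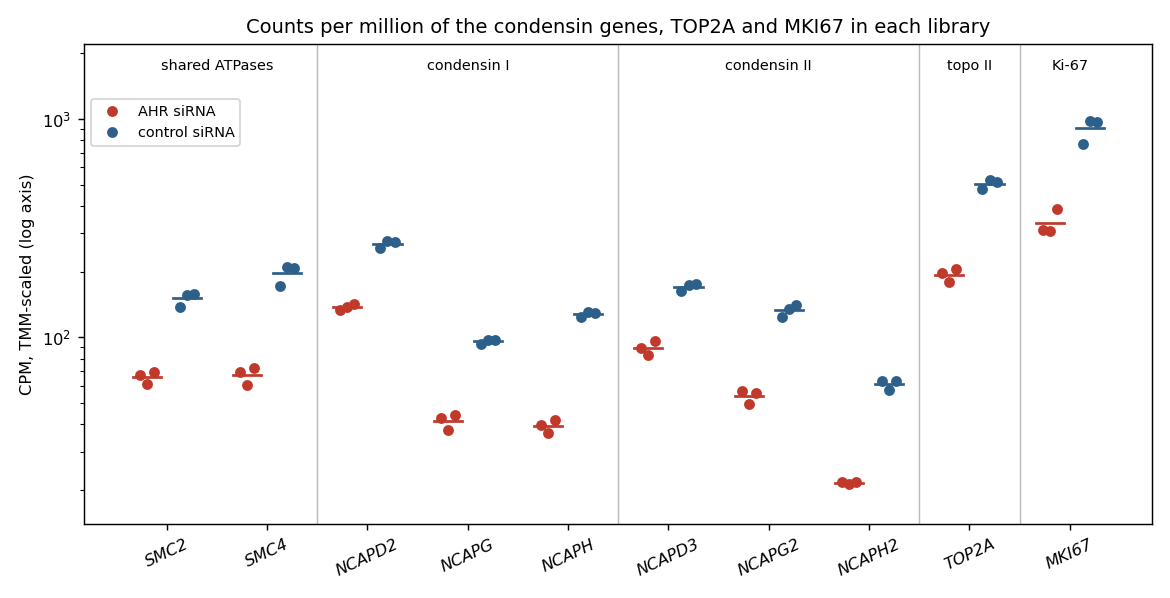
TMM-scaled CPM of each member (log axis) in the 3 AHR siRNA libraries and the 3 control siRNA libraries, with a line at each group's mean. The groups do not overlap for any of the 10 genes, and MKI67 spreads most, with 306 to 385 CPM in AHR siRNA and 770 to 979 CPM in control siRNA libraries.

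The promoters of these genes are shown because many genes of mitosis carry the cell cycle genes homology region, a short element through which the DREAM and MuvB complexes repress and then activate transcription in the cell cycle. RefSeq windows (GRCh38.p14) from 250 bases before to 50 bases after the start of transcription were matched by symbol for 9 of the 10 members, all but NCAPH2. For a gene with several windows, as for SMC4 and NCAPD3 with 2 each, the window holding the most annotated transcript starts was used. Other starts of such a gene were not searched. The words searched, on both strands, were TTTGAA and TTTAAA for this element and CCAAT for the box bound by NF-Y, a factor that often works beside it. The words were chosen after these sequences had been seen. The sequences below run from 200 bases before to 50 bases after the start, 5′ to 3′ along the gene, with these words in capitals (TTCAAA and ATTGG are TTTGAA and CCAAT read on the other strand), and they give at least 1 member of each role.
SMC4 (chr3:160399450-160399699, plus strand): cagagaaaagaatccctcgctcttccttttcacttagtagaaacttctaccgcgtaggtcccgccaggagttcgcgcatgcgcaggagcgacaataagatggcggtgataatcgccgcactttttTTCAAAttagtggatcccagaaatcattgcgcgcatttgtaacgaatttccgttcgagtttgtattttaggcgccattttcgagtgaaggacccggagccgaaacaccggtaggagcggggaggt
NCAPG (chr4:17810779-17811028, plus strand): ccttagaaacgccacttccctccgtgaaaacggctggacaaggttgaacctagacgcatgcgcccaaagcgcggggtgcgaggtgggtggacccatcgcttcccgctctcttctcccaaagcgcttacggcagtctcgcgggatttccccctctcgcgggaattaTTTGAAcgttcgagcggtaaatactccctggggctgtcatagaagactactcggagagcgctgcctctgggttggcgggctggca
NCAPH (chr2:96335566-96335815, plus strand): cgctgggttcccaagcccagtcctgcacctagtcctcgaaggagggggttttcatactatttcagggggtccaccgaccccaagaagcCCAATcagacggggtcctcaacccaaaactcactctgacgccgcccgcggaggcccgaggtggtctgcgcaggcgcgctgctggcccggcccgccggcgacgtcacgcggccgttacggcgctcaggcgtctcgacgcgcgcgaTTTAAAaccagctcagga
NCAPD3 (chr11:134223918-134224167, minus strand): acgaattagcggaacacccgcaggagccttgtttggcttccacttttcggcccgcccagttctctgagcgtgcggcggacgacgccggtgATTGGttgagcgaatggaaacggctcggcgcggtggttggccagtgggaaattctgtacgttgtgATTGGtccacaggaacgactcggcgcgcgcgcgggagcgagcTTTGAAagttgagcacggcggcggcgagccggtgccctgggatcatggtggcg
TOP2A (chr17:40417847-40418096, minus strand): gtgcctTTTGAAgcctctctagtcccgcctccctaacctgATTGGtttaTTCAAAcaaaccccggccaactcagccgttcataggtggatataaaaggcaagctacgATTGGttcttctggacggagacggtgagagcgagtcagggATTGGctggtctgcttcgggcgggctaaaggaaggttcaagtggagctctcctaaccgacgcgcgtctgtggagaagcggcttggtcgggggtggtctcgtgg
MKI67 (chr10:128126374-128126623, minus strand): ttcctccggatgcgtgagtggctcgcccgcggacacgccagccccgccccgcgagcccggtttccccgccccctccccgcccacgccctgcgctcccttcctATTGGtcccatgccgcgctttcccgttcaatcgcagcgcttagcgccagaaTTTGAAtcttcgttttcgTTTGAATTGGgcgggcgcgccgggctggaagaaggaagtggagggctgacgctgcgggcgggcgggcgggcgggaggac

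Every one of the 9 windows held TTTGAA or TTTAAA, against 15.0% of the windows of 10719 tested genes. Within 50 bases of the start, 6 of the 9 held it (SMC2, NCAPG, NCAPH, NCAPD3, NCAPG2 and MKI67), against 4.46% of the tested genes. Of the 3505 genes called lower that had a window, 17.5% held the word in the whole window and 6.73% within 50 bases of the start. The words were chosen with the members' sequences in view, so the members' counts are not independent of that choice. In MKI67 the word occurs at both -47 and -29, counted from the start to the first base of the word, and the second copy shares 1 base with a CCAAT box read on the other strand. In NCAPG it begins at -35, and in SMC2 and NCAPD3 it spans the start. In TOP2A it begins at -194 and -151, among 4 CCAAT boxes.

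CCAAT lay in 5 of the 9 windows, those of NCAPD2, NCAPH, NCAPD3, TOP2A and MKI67, against 36.6% of the tested genes. GCGTG, the core of the element that AHR binds with ARNT, lay in 5 of the 9 as well (NCAPD2, NCAPH, NCAPD3, NCAPG2 and MKI67), against 51.1% of the tested genes. An E2F word (TTTCCCGC, TTTGGCGC, TTTGCCGC or TTTCGCGC) lay in 1 of the 9, that of NCAPD3, against 5.34%. These matches describe the letters of the windows and do not show binding in these cells.

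**Figure D2:**
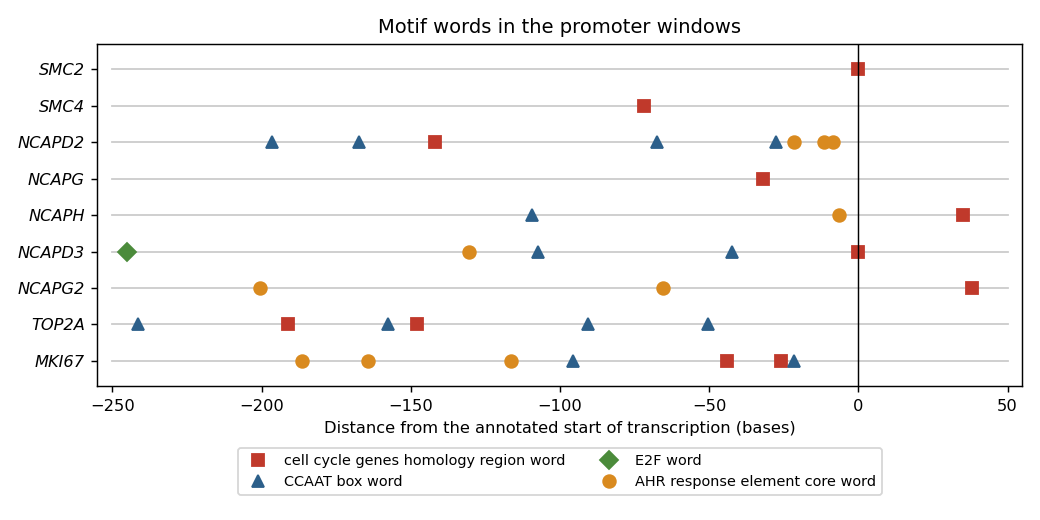
Centres of the motif words in the promoter windows of 9 members, by distance in bases from the annotated start of transcription (vertical line). Squares mark letters that match the word of the cell cycle genes homology region, found in all 9 rows, and triangles mark the CCAAT word, diamonds the E2F word and circles the word of the AHR response element core.

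The ATPase genes shared by both condensins fell by different amounts. SMC2 (ENSG00000136824.17, GRCh38 chr9:104094260-104141417, plus strand) had 67.3, 61.1 and 69.1 CPM in AHR siRNA replicates 1 to 3, against 138, 157 and 158 CPM in control siRNA replicates 1 to 3. Its log2 fold change was -1.20 (SE 0.08, edgeR adjusted p = 1.32e-10). SMC4 (ENSG00000113810.14, chr3:160399274-160434962, plus strand) had 69.6, 60.7 and 72.6 CPM in AHR siRNA replicates 1 to 3, against 172, 211 and 208 CPM in control siRNA replicates 1 to 3. SMC4 thus stood at 34.3% of control (log2 fold change -1.54, SE 0.09, edgeR adjusted p = 2.88e-11), against 43.7% for SMC2. Control siRNA replicate 1 was the lowest control library for SMC4, as for every member but NCAPH2. SMC4 was also the only member whose 3′ UTR holds GACTTAA or CACAACA, words singled out earlier from the fold changes of these same data and so not independent of them, while 19.8% of 12397 tested genes with an annotated 3′ UTR hold 1 of them. The opposite-strand neighbours of SMC4, TRIM59 and IFT80, overlap 1561 and 607 of its 8457 exonic bases. The strand setting of the counting is not given, so reads from those bases are uncertain.

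Within condensin I, the HEAT repeat subunit gene NCAPD2 fell least and the kleisin gene NCAPH most. NCAPD2 (ENSG00000010292.11, chr12:6493356-6531955, plus strand) had 133, 137 and 143 CPM in AHR siRNA replicates 1 to 3, against 256, 277 and 272 CPM in control siRNA replicates 1 to 3, or 51.3% of control (log2 fold change -0.96, SE 0.07, edgeR adjusted p = 3.63e-10). Its opposite-strand neighbour MRPL51 overlaps 7.49% of its exonic bases. NCAPG (ENSG00000109805.8, chr4:17810902-17844862, plus strand), the other HEAT repeat subunit gene, had 42.7, 37.6 and 44.1 CPM in AHR siRNA replicates 1 to 3, against 93.8, 97.1 and 97.5 CPM in control siRNA replicates 1 to 3. It stood at 43.1% of control (log2 fold change -1.21, SE 0.08, edgeR adjusted p = 1.07e-10), and LCORL, on the opposite strand, overlaps 33.1% of its exonic bases. NCAPH (ENSG00000121152.8, chr2:96335787-96373845, plus strand) had 39.7, 36.5 and 41.7 CPM in AHR siRNA replicates 1 to 3, against 125, 130.2 and 129.6 CPM in control siRNA replicates 1 to 3. It stood at 30.7% of control (edgeR adjusted p = 9.41e-13). On the log2 scale that was -1.71 (SE 0.07), and 124 of the 14900 tested genes fell further.

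In condensin II the D subunit gene NCAPD3 fell least, while the kleisin gene NCAPH2 (35.3% of control) and the G subunit gene NCAPG2 (40.7%) were not separated, as their log2 ratios overlapped between the groups. NCAPD3 (ENSG00000151503.11, chr11:134150119-134225454, minus strand) had 89.4, 83.0 and 96.4 CPM in AHR siRNA replicates 1 to 3, against 163, 174 and 175 CPM in control siRNA replicates 1 to 3, or 52.6% of control (log2 fold change -0.93, SE 0.07, edgeR adjusted p = 1.82e-09). Its neighbours JAM3, VPS26B and AP001775.2 overlap 5.10%, 2.73% and 1.05% of its exonic bases on the other strand. NCAPG2 (ENSG00000146918.18, chr7:158631311-158704829, minus strand) had 57.2, 49.6 and 55.6 CPM in AHR siRNA replicates 1 to 3, against 124, 134 and 140.5 CPM in control siRNA replicates 1 to 3, or 40.7% of control (log2 fold change -1.30, SE 0.08, edgeR adjusted p = 4.74e-11). Both its groups were tight relative to the gap between them. NCAPH2 (ENSG00000025770.17, chr22:50508216-50523472, plus strand), the kleisin gene of condensin II and the member with the fewest CPM, had 21.7, 21.3 and 21.7 CPM in AHR siRNA replicates 1 to 3, against 63.0, 57.4 and 63.2 CPM in control siRNA replicates 1 to 3. The AHR siRNA values of NCAPH2 were nearly equal (SD 0.227 CPM, against 3.31 CPM in control siRNA libraries), and it stood at 35.3% of control (log2 fold change -1.50, SE 0.08, edgeR adjusted p = 1.53e-11).

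TOP2A and MKI67, the members with the highest levels per kilobase of exon, fell to 38.3% and 36.9% of control. TOP2A (ENSG00000131747.13, chr17:40388516-40417950, minus strand) had 196, 179 and 205 CPM in AHR siRNA replicates 1 to 3, against 477, 526 and 512 CPM in control siRNA replicates 1 to 3 (log2 fold change -1.39, SE 0.07, edgeR adjusted p = 9.82e-12). MKI67 (ENSG00000148773.11, chr10:128096659-128126385, minus strand) had 311, 306 and 385 CPM in AHR siRNA replicates 1 to 3, against 770, 979 and 965 CPM in control siRNA replicates 1 to 3. Its log2 fold change was -1.44 (SE 0.10, edgeR adjusted p = 3.31e-10). AHR siRNA replicate 3 was the highest of its group for MKI67 and control siRNA replicate 1 the lowest of its group, and the groups did not overlap. TOP2B, whose product topoisomerase II beta is also made in cells that do not divide, had 137, 130.4 and 131 CPM in AHR siRNA replicates 1 to 3, against 141, 137 and 145 CPM in control siRNA replicates 1 to 3. Those groups overlapped, and TOP2B was not called (log2 fold change -0.08, SE 0.06, edgeR adjusted p = 0.271), with its sign reversed to 0.06 when libraries were scaled by their totals alone and to 0.02 with GC and length trends removed.

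Ratios between related genes within each library, in which the scaling of the libraries cancels apart from a small prior count, were compared next. Each was tested with a two-sided exact permutation test over the 6 libraries, whose smallest possible p is 0.1, so that no ratio could pass 0.05. The log2 ratio of TOP2A to TOP2B averaged 0.54 ± 0.09 in AHR siRNA and 1.84 ± 0.10 in control siRNA libraries (SD, n = 3 each), a difference of -1.30 (SE 0.08, exact p = 0.1, adjusted over 6 ratios 0.2) with no overlap between the groups. The log2 ratio of SMC4 to SMC2 averaged 0.04 ± 0.04 in AHR siRNA and 0.38 ± 0.05 in control siRNA libraries (SD, n = 3 each), a difference of -0.35 (SE 0.04, exact p = 0.1, adjusted 0.2), also without overlap. The SMC4 transcript was thus lower relative to the SMC2 transcript in every AHR siRNA library than in any control siRNA library. Whether the pair moved closer depends on the unit. In CPM they did, but CPM does not allow for the greater exon length of SMC4. Per kilobase of exon, SMC2 and SMC4 overlapped in control siRNA libraries, and SMC4 lay below SMC2 without overlap in AHR siRNA libraries. With coding length in place of exon length the means did move closer. SMC4 averaged 51.0 and SMC2 42.0 CPM per coding kilobase in control siRNA libraries, against 17.5 and 18.3 in AHR siRNA libraries.

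Between counterpart subunits of condensin I and condensin II, the log2 ratio differed by -0.21 to 0.08 between the groups, and the kleisins differed most. The log2 ratio of NCAPH to NCAPH2 averaged 0.86 ± 0.08 in AHR siRNA and 1.07 ± 0.10 in control siRNA libraries (SD, n = 3 each), a difference of -0.21 (SE 0.08, exact p = 0.1, adjusted 0.2), and the groups did not overlap. For NCAPG to NCAPG2 the log2 ratio averaged -0.38 ± 0.05 in AHR siRNA and -0.47 ± 0.06 in control siRNA libraries (SD, n = 3 each), and the difference of 0.08 ran from -0.02 to 0.19 over all pairs of libraries (exact p = 0.2, adjusted 0.3). For NCAPD2 to NCAPD3 it averaged 0.62 ± 0.09 in AHR siRNA and 0.65 ± 0.02 in control siRNA libraries (SD, n = 3 each), and the difference of -0.03 ran from -0.11 to 0.09 (exact p = 0.6, adjusted 0.6). MKI67 to TOP2A averaged 0.78 ± 0.12 in AHR siRNA and 0.83 ± 0.12 in control siRNA libraries (SD, n = 3 each), with a difference of -0.05 that ran from -0.25 to 0.22 (exact p = 0.6, adjusted 0.6), and it was 0.01 without AHR siRNA replicate 1.

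**Figure D3:**
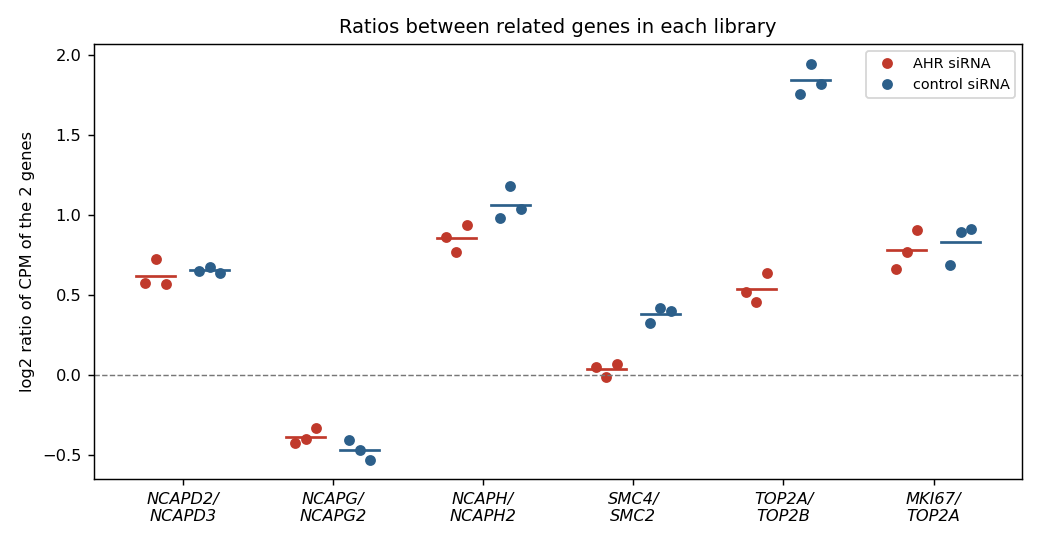
Log2 ratio of the CPM of 2 related genes in each of the 3 AHR siRNA and 3 control siRNA libraries, with a line at each group's mean. The groups stand apart for TOP2A/TOP2B, SMC4/SMC2 and NCAPH/NCAPH2 and overlap for the other 3 ratios.

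Within each complex, the kleisin was also set against the D subunit. The log2 ratio of NCAPH to NCAPD2 was -1.74, -1.91 and -1.77 in AHR siRNA replicates 1 to 3, against -1.04, -1.09 and -1.07 in control siRNA replicates 1 to 3. That of NCAPH2 to NCAPD3 was -2.03, -1.95 and -2.14 in AHR siRNA replicates 1 to 3, against -1.37, -1.59 and -1.47 in control siRNA replicates 1 to 3. The kleisin transcript was thus lower relative to the D subunit transcript in every AHR siRNA library than in any control siRNA library, by 0.74 on the log2 scale in condensin I and 0.57 in condensin II. Against the G subunit, the log2 ratio of NCAPH to NCAPG was -0.10, -0.04 and -0.08 in AHR siRNA replicates 1 to 3, against 0.41, 0.42 and 0.41 in control siRNA replicates 1 to 3. That of NCAPH2 to NCAPG2 was -1.39, -1.21 and -1.35 in AHR siRNA replicates 1 to 3, against -0.97, -1.23 and -1.15 in control siRNA replicates 1 to 3, and here the groups overlapped. These 4 ratios were chosen after the values had been seen and were not tested.

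Transcript levels of different genes were compared as CPM per kilobase of exon. In AHR siRNA libraries TOP2A (30.0 ± 2.1) and MKI67 (26.1 ± 3.5) stood above NCAPD2 (21.2 ± 0.8) and NCAPH (12.0 ± 0.8), and the other 6 condensin genes lay between 6.83 and 10.2 CPM per kilobase (SD, n = 3). In control siRNA libraries the order began likewise, with TOP2A at 78.5 ± 3.9, MKI67 at 70.6 ± 9.1, NCAPD2 at 41.4 ± 1.7 and NCAPH at 39.1 ± 0.9, above 18.7 to 23.3 CPM per kilobase for the other 6 (SD, n = 3). TOP2A and MKI67 overlapped in both groups. NCAPD2 and NCAPH overlapped in control siRNA libraries only, and in AHR siRNA libraries they were separate. Among the lower 6, SMC2 overlapped NCAPD3, NCAPG overlapped SMC4 and SMC4 overlapped NCAPG2 in AHR siRNA libraries. In control siRNA libraries SMC2 overlapped SMC4, and NCAPG, NCAPH2, NCAPG2 and NCAPD3 each overlapped the next. NCAPD3 moved to the sixth place in AHR siRNA libraries, against the tenth in control siRNA libraries, while NCAPH2 moved to the tenth, against the eighth. With coding length in place of exon length the first 3 places were kept in both groups, but NCAPH took place 6 in AHR siRNA libraries, and several of the lower places changed.

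**Figure D4:**
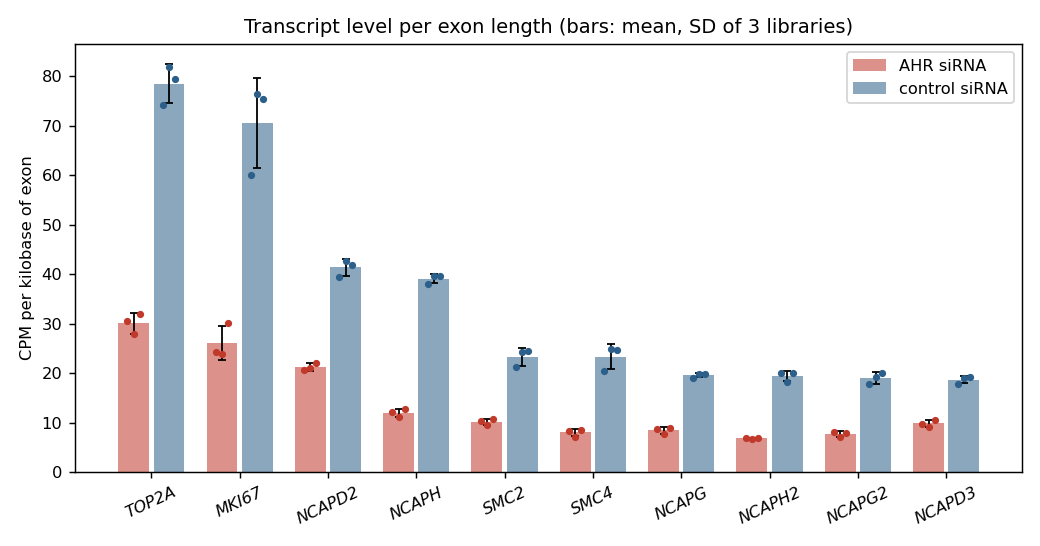
CPM per kilobase of exon of each member, as the mean (bar), SD (error bar) and values (points) of the 3 AHR siRNA and 3 control siRNA libraries. TOP2A and MKI67 are highest in both groups, and NCAPH is near NCAPD2 in control siRNA libraries (39.1 and 41.4) but lower in AHR siRNA libraries (12.0 and 21.2).

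Lists of genes that work with these members were counted in the same fit, in which 30.1% of all tested genes were lower and 30.0% higher. Of 14 regulators and chromatin partners of condensin, 13 were called lower and 1 was not called, with a median log2 fold change of -1.30. PLK1, a mitotic kinase that phosphorylates condensin II, averaged 63.2 ± 1.6 CPM in AHR siRNA and 193 ± 8 CPM in control siRNA libraries (SD, n = 3 each), or 32.7% of control. CDK1, the kinase that starts mitosis, fell to 38.6% of control, the checkpoint kinase gene TTK, whose product also phosphorylates NCAPH2, to 33.5%, and CDCA8, a subunit gene of the chromosomal passenger complex, to 37.6%. The SE of these 4 log2 fold changes was 0.07 to 0.08, and the edgeR adjusted p was at most 1.68e-11 for PLK1, CDK1, TTK and CDCA8. All 8 other proliferation index genes, of which CCNB1 and BIRC5 are also on the list before, were called lower (median -1.31). Among them the transcription factor gene MYBL2 fell to 29.5% of control, the replicative helicase gene MCM6 to 41.1%, the cyclin gene CCNB1 to 37.8% and the spindle kinase gene AURKA to 42.6%, with SEs of 0.07 to 0.08 on the log2 scale and edgeR adjusted p of at most 2.81e-11.

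Cohesin, the ring complex that holds sister chromatids together, moved less uniformly. Of 18 genes of cohesin and its control, 14 were lower, 2 were higher and 2 were not called, with a median log2 fold change of -0.61. Of all tested genes, 30.1% were lower and 30.0% higher. SMC3, a core ATPase gene of cohesin, fell to 44.7% of control, with 91.0 ± 5.2 CPM in AHR siRNA and 203 ± 7 CPM in control siRNA libraries (SD, n = 3 each). The other core cohesin genes fell less, with SMC1A at 68.6% of control, RAD21 at 63.0% and STAG1 at 83.3%, while STAG2 was not called (102%). PTTG1, which encodes securin, fell to 35.8%, ESPL1, which encodes separase, to 38.8%, and SGO2, which encodes a protector of centromeric cohesin, to 36.0% (edgeR adjusted p at most 1.90e-10). The loader gene MAU2 rose to 134% of control (log2 fold change 0.42, SE 0.07, edgeR adjusted p = 5.09e-05). HDAC8, which encodes the deacetylase of SMC3, was called higher at 0.34 (SE 0.11, edgeR adjusted p = 0.0144), a call that was lost without AHR siRNA replicate 1 (0.30, edgeR adjusted p = 0.0624), without control siRNA replicate 2 (0.25, 0.0835) and without control siRNA replicate 3 (0.26, 0.0837), within a range of adjusted p from 3.54e-05 to 0.0837 over its alternatives.

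The third family of SMC rings, SMC5/6, acts in DNA repair, and its genes changed by smaller amounts. Of 8 tested, 6 were lower and 2 were not called (median log2 fold change -0.35), and 3 were lower when libraries were scaled by their totals alone. SMC6 fell to 59.5% of control (edgeR adjusted p = 1.32e-07), the SUMO ligase subunit gene NSMCE2 to 64.5% (7.41e-05), the recruiting factor gene SLF1 to 73.0% (0.000202) and SMC5 to 79.4% (0.000966). Scaling by totals ended the call of SMC5 (log2 fold change -0.19, edgeR adjusted p = 0.0576), whose adjusted p ranged from 1.08e-06 to 0.0576 over the alternatives. Of 7 other topoisomerase and adduct repair genes, TOP2B included, 4 were not called, 2 were lower and 1 was higher (median -0.08). Among all tested genes 30.1% were lower and 30.0% higher, so these counts do not set this list apart. Scaling by library totals alone gave 1 lower and 2 higher of the 7 instead, and with GC and length trends removed 2 were lower and 2 higher. TOP3A, which unlinks recombination intermediates, fell to 73.3% of control (edgeR adjusted p = 1.81e-05), and TDP1, which removes trapped topoisomerase I from DNA, to 79.7% (0.00202). TDP1 was not called under scaling by totals (-0.18, edgeR adjusted p = 0.0664), and its adjusted p ranged from 0.000715 to 0.0664 over the alternatives. TOP1MT, the mitochondrial topoisomerase I gene, rose to 121% of control (log2 fold change 0.27, SE 0.08, edgeR adjusted p = 0.00503).

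Among 12 Ki-67 partners and genes of the layer around mitotic chromosomes, 9 were lower, 2 were not called and 1 was higher (median log2 fold change -0.48). The shares of all tested genes were 30.1% lower and 30.0% higher. CDCA2, which encodes the Ki-67 relative Repo-Man that brings protein phosphatase 1 to chromosomes, fell to 38.1% of control, and KIF15, a kinesin gene whose product binds Ki-67, to 41.2% (edgeR adjusted p = 1.72e-10 and 1.63e-08). The nucleolar gene NCL fell to 62.9%, with 1889 ± 54 CPM in AHR siRNA and 3002 ± 105 CPM in control siRNA libraries (SD, n = 3 each). NOLC1, a nucleolar phosphoprotein gene, was the 1 higher member, with 546, 513 and 565 CPM in AHR siRNA replicates 1 to 3, against 275, 277 and 289 CPM in control siRNA replicates 1 to 3 (log2 fold change 0.95, SE 0.07, edgeR adjusted p = 4.93e-10).

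**Figure D5:**
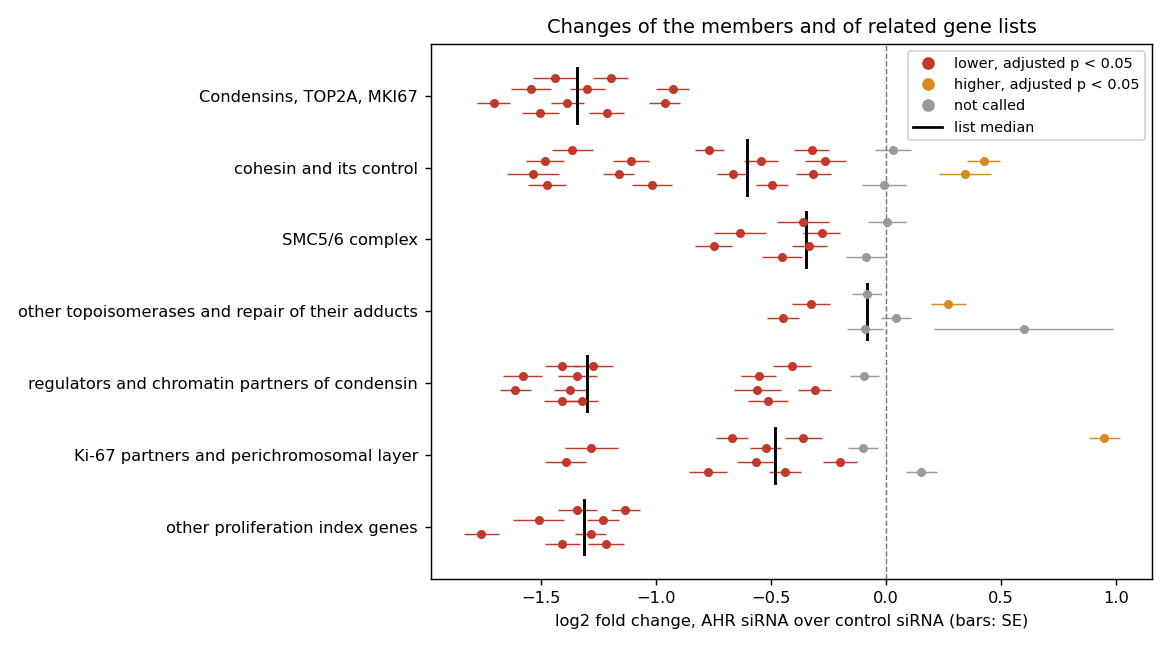
Log2 fold change, AHR siRNA over control siRNA, of each member and of each gene of 6 related lists, with its SE and with a black line at the list median. The members, the condensin regulators and the proliferation index genes have medians of -1.34, -1.30 and -1.31, cohesin and the Ki-67 partners -0.61 and -0.48, and SMC5/6 and the other topoisomerases -0.35 and -0.08.

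The genes whose profile over the 6 libraries was closest to that of the members were named by the root-mean-square distance of centred log2 CPM, among 10869 genes with a symbol and a mean of at least 5 CPM. This distance is a description and is dominated by the difference between the groups. Closest to MKI67 were CLSPN, which encodes a replication checkpoint adaptor (distance 0.03), then HIPK3, IL6ST, ESPL1 and KNL1 (0.06 to 0.08). Closest to TOP2A were the nuclear pore gene NUP58 (0.03), FAM111B, NFIB, SGPP2 and the spindle midzone gene PRC1 (0.04 to 0.05). Closest to the mean of the 8 condensin genes were the Fanconi anaemia gene FANCI (0.03), the cytokinesis gene RACGAP1, ARHGAP11A, NFIB and IDE (each 0.04).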

How the data were processed

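Total RNA was extracted with Trizol. RNA selection, strandedness and read length were not stated in any source at hand. The authors deposited raw counts per versioned Ensembl gene ID, 1 table per library. The submitters' processing notes name HTSeq, TopHat and TopHat2 2.0.11, and the builds hg19 and GRCh37, without their roles. Symbols came from a table of gene names, and 41124 IDs had one. Positions and lengths are those of GENCODE 29 (GRCh38), matched by unversioned ID. The build behind the counts is uncertain.

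The deposited counts entered edgeR 4.0.16 (R 4.3.3) unchanged, after filterByExpr and TMM scaling, by glmQLFTest with group as the only term and Benjamini-Hochberg adjustment at 0.05. The SE is the log2 fold change over the square root of F. CPM are scaled by TMM, except for summed markers, which use library totals. The result of 1 further marker list is not reported here. Ratios and distances use log2 CPM with a prior count of 2. The edgeR test was checked on simulated counts with the same spread between replicates for every gene. That check does not cover genes of unequal spread or a library that stands apart. Replicates differed by more than sampling noise (chi-square per degree of freedom 1.54 to 8.68). Control siRNA replicate 1 stood apart from its group, at 8.68 and 7.55 against replicates 2 and 3, which gave 1.54 between them.

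The members and lists were chosen with earlier results of these data known. Named genes are all members, AHR and TOP2B, up to 4 called genes per list with the smallest p, called genes that moved against their list, and the 5 closest profiles. Beyond these, the other core cohesin genes and some cell type markers are named after their values were seen. Alternatives were DESeq2 1.42.0 size factors and Wald test, limma 3.58.1 voom, library totals, no filter or 1 CPM in 3 libraries, GC and length trends removed by loess (span 0.4), an adjusted p under 0.01, a prior count of 0.5, coding length, a replicate block, and each library left out.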

Additional observations from a re-analysis of the deposited data

How the results depend on the processing

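All 10 members stayed lower and called under all 15 alternatives, with log2 fold changes from -1.75 to -0.78 and a largest adjusted p of 5.15e-07 (NCAPD3 without AHR siRNA replicate 2). Library totals alone moved the median of all tested genes to 0.15, and 5885 of the 9090 called genes (64.7%) were then higher, against 4474 of 8953 with TMM. Relative to that median the members stood at -1.71 to -0.93, as with TMM. A change of scaling shifts all genes by nearly the same amount, so this distance could hardly differ and is no separate check. Under library totals TOP2B was at 0.064, and the counts were 3 lower in SMC5/6, 1 lower and 2 higher among other topoisomerases, and 2 higher among Ki-67 partners. With GC and length trends removed TOP2B was at 0.024, with 2 higher among other topoisomerases and 2 among Ki-67 partners. A filter of 1 CPM in 3 libraries also gave 2 higher Ki-67 partners. Cohesin had 1 higher gene at an adjusted p under 0.01, and 1 to 2 when single libraries were left out. The MKI67 to TOP2A difference ran from -0.12 to 0.0074 when single libraries were left out. The causes were not tested. Of 405 values of the 27 other named genes, 397 kept direction and call.

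Whether the replicate numbers pair the libraries could not be settled with 3 libraries a group. Deviations of same-numbered libraries correlated at 0.19, -0.04 and 0.15, against -0.26 to 0.16 for libraries of different numbers. AHR siRNA replicate 2 correlated best with control siRNA replicate 1 (0.06). With a replicate block 4810 genes were lower and 4788 higher, all 10 members remained lower, and 2 Ki-67 partners were higher. The ratio of TOP2A to TOP2B differed by -1.30 in same-numbered pairs (exact sign-flip p = 0.25, the smallest that 3 pairs can give). The lowest count of a member in any library was 262, and the part of depth was not tested beyond the scaling.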
